A study of Mus musculus with 12 samples.

Results

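The respiratory chain subunits described here are the nuclear genes whose symbols follow the naming of NADH dehydrogenase (Nduf), succinate dehydrogenase (Sdh), the cytochrome bc1 complex (Uqcr and Cyc1), cytochrome c oxidase (Cox) and ATP synthase (Atp5), with pseudogenes left out. This rule found 83 of the 25239 gene symbols in the count tables: 36 for complex I, 4 for complex II, 9 for complex III, 17 for complex IV and 17 for complex V. The rule reads gene symbols alone. Names of other form, such as Ndufab1 and Cox7a2l, fall outside the rule, and Ndufa4 is counted in complex I by its name although its protein is now assigned to complex IV.

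The study measured RNA of cardiomyocytes from mouse hearts in 12 libraries, which fall into 4 groups of 3. The Chaf1a cko and Chaf1a cko 3M groups carry floxed Chaf1a alleles with Myh6-Cre, a Cre transgene driven by the promoter of the cardiomyocyte myosin heavy chain gene Myh6, and Chaf1a encodes the large subunit of the histone chaperone CAF-1, which places histones on newly made DNA. The Ctrl and Ctrl 3M groups carry the floxed alleles without Cre by the series' design text and have the genotype WT in their labels, so deletion and Cre come together and cannot be told apart. Labels give no age beyond the letters 3M, and no sex. The Chaf1a cko and Ctrl libraries are called the first set, and the Chaf1a cko 3M and Ctrl 3M libraries the 3M set.

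Electrons from NADH enter the chain at complex I and electrons from succinate at complex II. They pass through ubiquinone to complex III and by cytochrome c to complex IV, which reduces oxygen, and the proton gradient built on the way drives ATP synthesis by complex V. Each complex except complex II joins nuclear-encoded subunits with a few made from mitochondrial DNA, and cardiomyocytes, which beat without rest, are among the cells richest in these complexes. The tables hold 0 mitochondrially encoded genes, so the nuclear part alone is described. A level below is in CPM, counts scaled to a common library total by edgeR's trimmed mean of M-values, and a fold change is Chaf1a cko over Ctrl on the log2 scale. A gene is called where the p-value of edgeR's quasi-likelihood test, adjusted by the Benjamini-Hochberg method over all tested genes, is below 0.05.

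The promoters of the 5 subunits called in the first set are shown because they are the genes on which that comparison turns. Each is the 250 bases before the RefSeq gene start in GRCm38.p6, written on the gene's strand. Cox8a is at chr19:7217617-7217866 on the minus strand, Cox6a1 at chr5:115348959-115349208 on the minus strand, Atp5h at chr11:115419920-115420169 on the minus strand, Sdhb at chr4:140961021-140961270 on the plus strand and Atp5l at chr9:44920743-44920992 on the minus strand. Capitals mark exact matches, on either strand, to motif letters of factors known for respiratory genes.
Cox8a: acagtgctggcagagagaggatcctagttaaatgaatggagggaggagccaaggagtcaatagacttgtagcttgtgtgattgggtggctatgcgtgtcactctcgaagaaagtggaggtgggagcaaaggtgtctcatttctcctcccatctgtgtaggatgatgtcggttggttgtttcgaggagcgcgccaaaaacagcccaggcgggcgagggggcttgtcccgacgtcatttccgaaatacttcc
Cox6a1: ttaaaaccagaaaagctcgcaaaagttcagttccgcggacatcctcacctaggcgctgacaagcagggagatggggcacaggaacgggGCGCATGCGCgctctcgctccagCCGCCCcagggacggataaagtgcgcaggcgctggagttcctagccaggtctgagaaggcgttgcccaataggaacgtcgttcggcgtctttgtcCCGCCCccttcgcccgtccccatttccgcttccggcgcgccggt
Atp5h: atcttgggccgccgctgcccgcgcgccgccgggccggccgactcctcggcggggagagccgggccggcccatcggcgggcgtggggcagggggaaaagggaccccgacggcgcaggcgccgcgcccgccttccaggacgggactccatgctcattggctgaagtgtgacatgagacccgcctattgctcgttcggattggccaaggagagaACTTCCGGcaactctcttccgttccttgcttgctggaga
Sdhb: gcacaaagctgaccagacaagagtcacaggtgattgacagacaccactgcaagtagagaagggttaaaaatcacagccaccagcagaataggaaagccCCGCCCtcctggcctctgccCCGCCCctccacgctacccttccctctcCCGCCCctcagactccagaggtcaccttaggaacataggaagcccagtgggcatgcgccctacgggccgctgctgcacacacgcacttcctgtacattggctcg
Atp5l: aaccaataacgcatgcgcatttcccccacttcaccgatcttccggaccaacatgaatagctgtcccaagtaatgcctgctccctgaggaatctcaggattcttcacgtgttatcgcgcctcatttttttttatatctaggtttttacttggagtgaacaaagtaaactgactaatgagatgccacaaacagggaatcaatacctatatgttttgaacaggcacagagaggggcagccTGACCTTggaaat

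The letters searched were GCGCA followed by TGCGC, its reverse complement, for NRF1, CCGGAAGT for GABP, GATGGCG for YY1, AAGGTCA for ERR and GGGCGG for SP1, the first of which reads the same on either strand. In the promoters shown, Cox6a1 has an NRF1 match followed by 2 SP1 matches, Atp5h has 1 GABP match, Sdhb has 3 SP1 matches, Atp5l has 1 ERR match and Cox8a has none. No motif was thus shared by all 5. Among the 67 subunits with a promoter entry, 4 (5.97%) held the NRF1 letters, against 1.18% of the 18651 genes with an entry; these were Cox6a1, Atp5g2, Atp5k and Ndufa11. The shares were 4.48% of subunits against 4.23% of all genes for GABP, 2.99% against 2.90% for YY1, 7.46% against 4.24% for ERR and 35.8% against 45.2% for SP1. A match is a stretch of letters, and no binding was measured here.

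In the first set, 5 subunits rose in Chaf1a cko cardiomyocytes and none fell. The 5 were Cox8a and Cox6a1 of complex IV, Atp5h and Atp5l of complex V, and Sdhb of complex II, with fold changes of 0.23 to 0.45 on the log2 scale. They make up 6.02% of the 83, against 0.74% of the 22965 tested genes called higher and 0.435% called lower. Most of the other subunits lay slightly above their controls. Of all 83, 68 (81.9%) had a fold change above 0, against 49.1% of tested genes, and their median was 0.10, against -0.01 over all tested genes. The 3 libraries of Chaf1a cko all lay above the 3 of Ctrl for 31 subunits (37.3%), against 8.33% of tested genes, and all lay below for Cox6a2 alone, against 7.85%. At an unadjusted p below 0.05, 28 subunits were higher (33.7%), against 5.63% of tested genes, and 1, Cox6a2, was lower, against 4.5%. In such bulk libraries a change in the share of cardiomyocytes and a change in RNA per cardiomyocyte cannot be told apart.

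**Figure D1:**
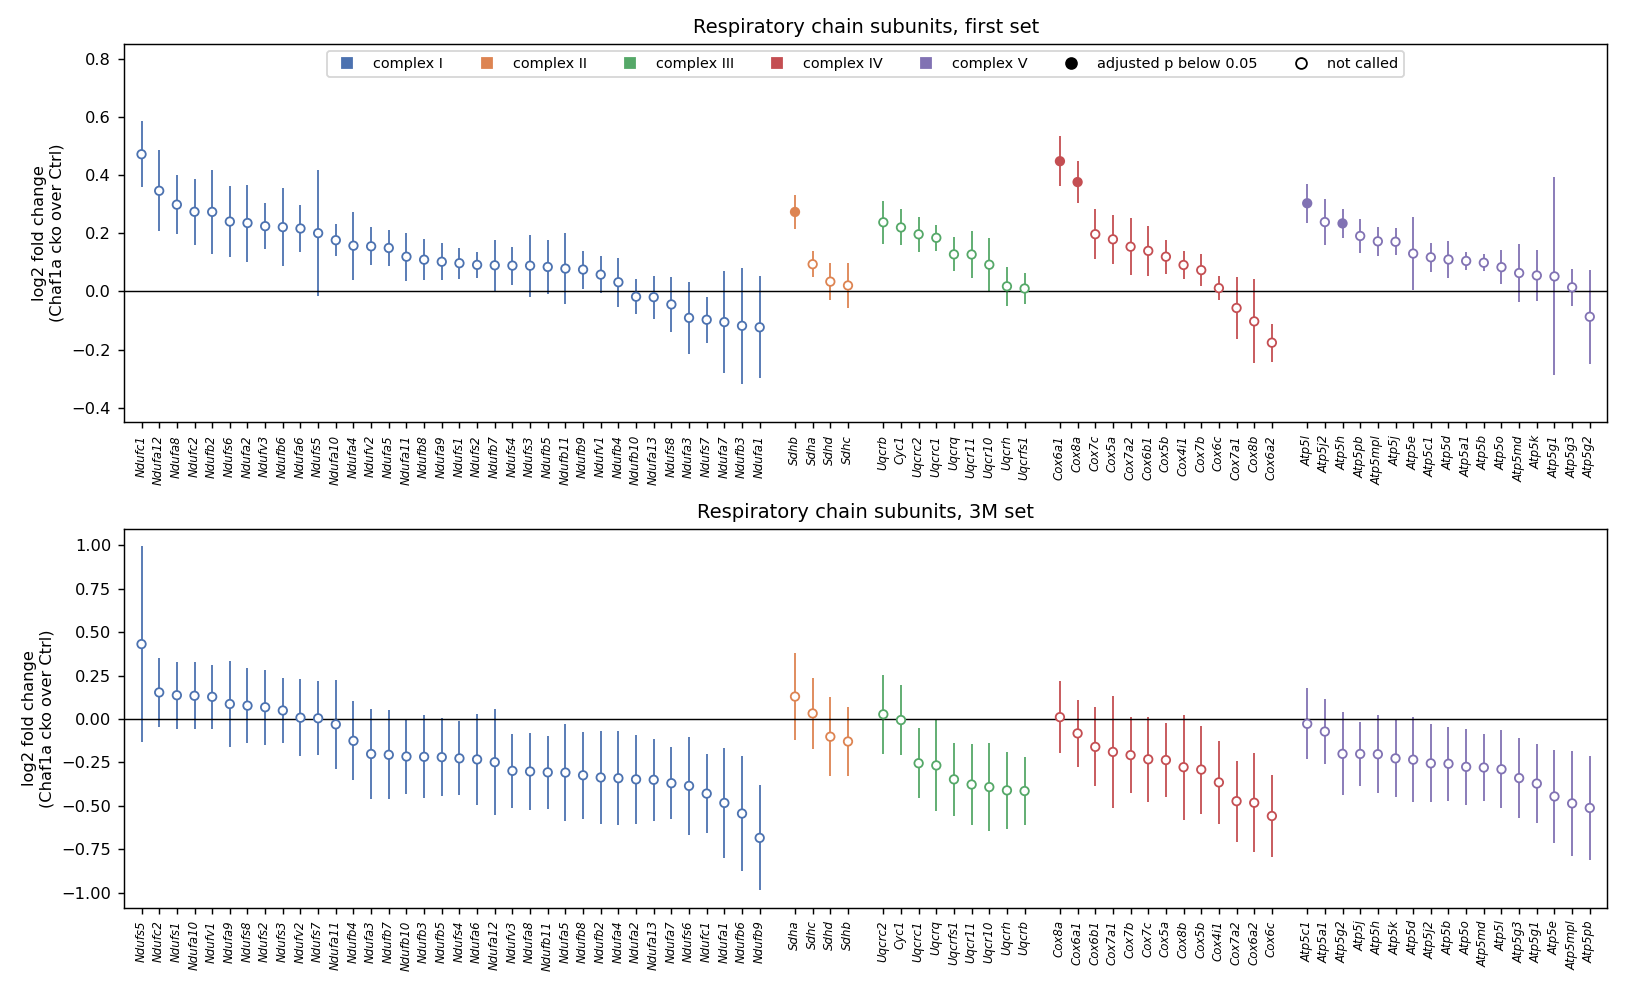
Log2 fold change (Chaf1a cko over Ctrl, with its standard error) of each subunit on the vertical axis, grouped by complex, in the first set (top) and the 3M set (bottom), with filled points for an adjusted p below 0.05 in edgeR. Cox4i2, Cox6b2, Cox7b2 and Cox8c, whose counts were low, are not drawn; the 5 filled points are in the first set, where most points lie above 0, and most points of the 3M set lie below 0.

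Complex IV held both the largest called increases and the clearest split between its members. Cox8a, the widely expressed form of the smallest subunit, had 125, 139 and 128 CPM in Chaf1a cko libraries and 103, 103 and 96.3 CPM in Ctrl libraries. The groups did not overlap, and the fold change was 0.38 ± 0.07 (SE, n = 3 each; edgeR adjusted p = 0.0102). Cox6a1, the widely expressed form of subunit VIa, had 103, 101 and 91.0 CPM in Chaf1a cko libraries and 78.3, 67.2 and 70.5 CPM in Ctrl libraries. Again every Chaf1a cko library was above every Ctrl library, with a fold change of 0.45 ± 0.09 (SE, n = 3 each; edgeR adjusted p = 0.0108). Cox6a2, the heart and skeletal muscle form of the same subunit, had 166, 159 and 143 CPM in Chaf1a cko libraries and 182, 175 and 172 CPM in Ctrl libraries. These groups were apart in the other direction, but the fold change of -0.18 ± 0.07 (SE, n = 3 each) did not pass (edgeR adjusted p = 0.317).

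Among complex IV subunits without a muscle form, Cox5a, Cox5b, Cox6c, Cox7b and Cox7c had fold changes of 0.01 to 0.20 with 0 called. Cox6c, an accessory subunit, was the most abundant member of complex IV per length, at 1204 CPM per kilobase of transcript in Chaf1a cko and 1194 in Ctrl. Its 3 libraries of Chaf1a cko had 637, 586 and 593 CPM, those of Ctrl had 586, 611 and 606 CPM, and the groups overlapped.

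**Figure D2:**
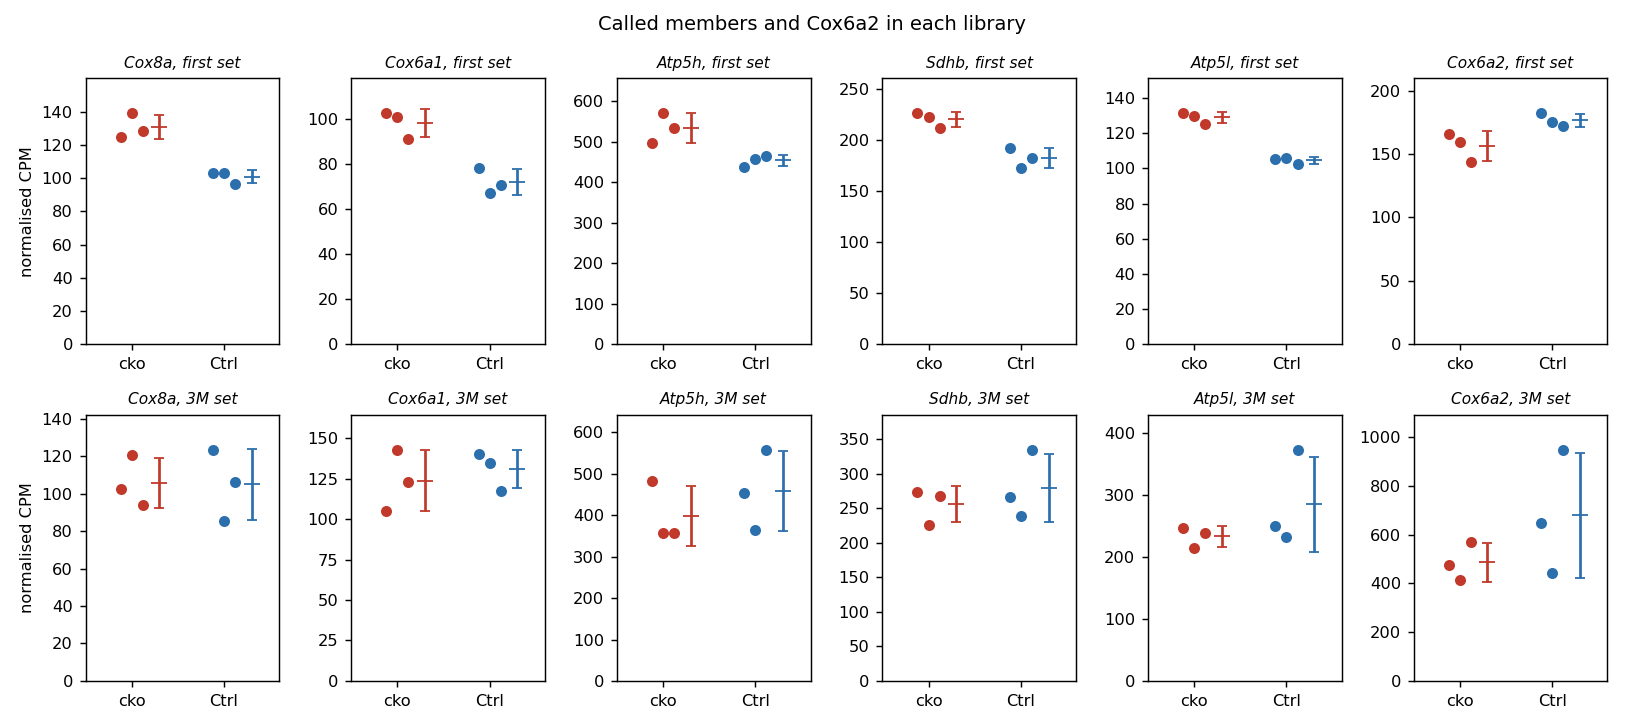
Normalised CPM (vertical axis, from 0) of the 5 subunits called in the first set and of Cox6a2, in the 3 Chaf1a cko libraries (left, red) and 3 Ctrl libraries (right, blue) of the first set (top row) and the 3M set (bottom row), with bars for the mean ± SD. In the first set the groups of all 6 genes are apart, with Cox6a2 lower in Chaf1a cko, and in the 3M set all 6 overlap.

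Complex V had 16 of its 17 subunits above 0. Atp5h, subunit d of the peripheral stalk that holds the catalytic head still, had 497, 571 and 533 CPM in Chaf1a cko libraries and 437, 458 and 466 CPM in Ctrl libraries. The groups did not overlap, and the fold change was 0.23 ± 0.05 (SE, n = 3 each; edgeR adjusted p = 0.0250). Atp5h was also the most abundant member of complex V per length, at 1098 CPM per kilobase in Chaf1a cko and 934 in Ctrl. Atp5l, subunit g in the membrane part, had 131.4, 130 and 125 CPM in Chaf1a cko libraries and 105, 106 and 102 CPM in Ctrl libraries. Its fold change was 0.30 ± 0.07 (SE, n = 3 each; edgeR adjusted p = 0.0295), with no overlap.

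By part of ATP synthase, all 5 genes of the catalytic head, Atp5a1, Atp5b, Atp5c1, Atp5d and Atp5e, had fold changes of 0.10 to 0.13, and 0 were called. The 4 genes of the peripheral stalk had a median of 0.18 and the 5 accessory genes of the membrane part a median of 0.17, each with 1 called. The c ring had the lowest median, 0.01, and the difference between parts was not tested. Its subunit, which forms the rotating ring, is made from 3 genes that encode the same mature protein, and here they had fold changes of -0.09 (Atp5g2), 0.01 (Atp5g3) and 0.05 (Atp5g1). Atp5g1 had 40.1, 54.4 and 76.0 CPM in Chaf1a cko libraries and 71.1, 39.4 and 54.5 CPM in Ctrl libraries, so its libraries varied widely within both groups. Per kilobase Atp5g3 was the most abundant of the 3, at 271 CPM in Chaf1a cko and 268 in Ctrl.

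In complex II, which takes part in the Krebs cycle as well, the 4 genes had fold changes of 0.02 to 0.27. The difference between them was not tested. Sdhb, the iron-sulfur subunit, had 227, 223 and 213 CPM in Chaf1a cko libraries and 192, 173 and 183 CPM in Ctrl libraries. The groups did not overlap, and the fold change was 0.27 ± 0.06 (SE, n = 3 each; edgeR adjusted p = 0.0256). Sdha, the flavin subunit and the most abundant of the 4 per length, had 651, 671 and 670 CPM in Chaf1a cko libraries and 654, 632 and 581 CPM in Ctrl libraries, which overlapped (0.09 ± 0.04; edgeR adjusted p = 0.490). The membrane anchors Sdhc and Sdhd had fold changes of 0.02 and 0.03.

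In complex III all 9 subunits were above 0, with a median of 0.13, and 0 passed the edgeR test, although 5 had an unadjusted p below 0.05. Uqcrc1, a core protein, had the smallest p-value of the complex. Its libraries had 437, 417 and 424 CPM in Chaf1a cko and 377, 366 and 382 CPM in Ctrl, without overlap (0.18 ± 0.04, SE, n = 3 each; edgeR adjusted p = 0.0535). Its partner Uqcrc2 had a fold change of 0.20. Cyc1, the haem-carrying cytochrome c1, and Uqcrfs1, the Rieske iron-sulfur protein, are the nuclear-encoded catalytic subunits, and their fold changes were 0.22 ± 0.06 and 0.01 ± 0.05 (SE, n = 3 each). Uqcrq, a small subunit, was the most abundant per length, at 498 CPM per kilobase in Chaf1a cko and 456 in Ctrl.

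In complex I, the largest, 28 of 36 subunits were above 0, with a median of 0.10, and 0 passed the edgeR test, although 9 had an unadjusted p below 0.05. The 7 core subunits that carry the flavin, the iron-sulfur clusters and the ubiquinone site ranged from -0.10 for Ndufs7 to 0.15 for Ndufv2. The 29 accessory subunits ranged from -0.12 to 0.47. At the top, Ndufc1 had 56.5, 63.7 and 59.1 CPM in Chaf1a cko libraries and 36.6, 48.5 and 44.1 CPM in Ctrl libraries. These did not overlap, and the fold change of 0.47 ± 0.11 (SE, n = 3 each) missed the threshold (edgeR adjusted p = 0.0516). Ndufb9, the most abundant of complex I per length, had 276 CPM per kilobase in Chaf1a cko and 263 in Ctrl.

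Added up, the 83 subunits took 16171, 16213 and 16147 CPM in Chaf1a cko libraries and 15414, 14763 and 14659 CPM in Ctrl libraries. Every Chaf1a cko sum was above every Ctrl sum, and this held for each of the 5 complexes. The mean sums were 16180 ± 33.4 CPM in Chaf1a cko and 14950 ± 409 CPM in Ctrl (SD, n = 3 each), of which complex V took 7092 ± 28.4 and 6513 ± 195 CPM. As shares of all counts, without further scaling, the subunits had 1.61 ± 0.0332% in Chaf1a cko and 1.5 ± 0.023% in Ctrl. Without that scaling the groups overlapped for complex IV, at 0.2313% in Chaf1a cko replicate 3 and 0.2314% in Ctrl replicate 1.

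**Figure D3:**
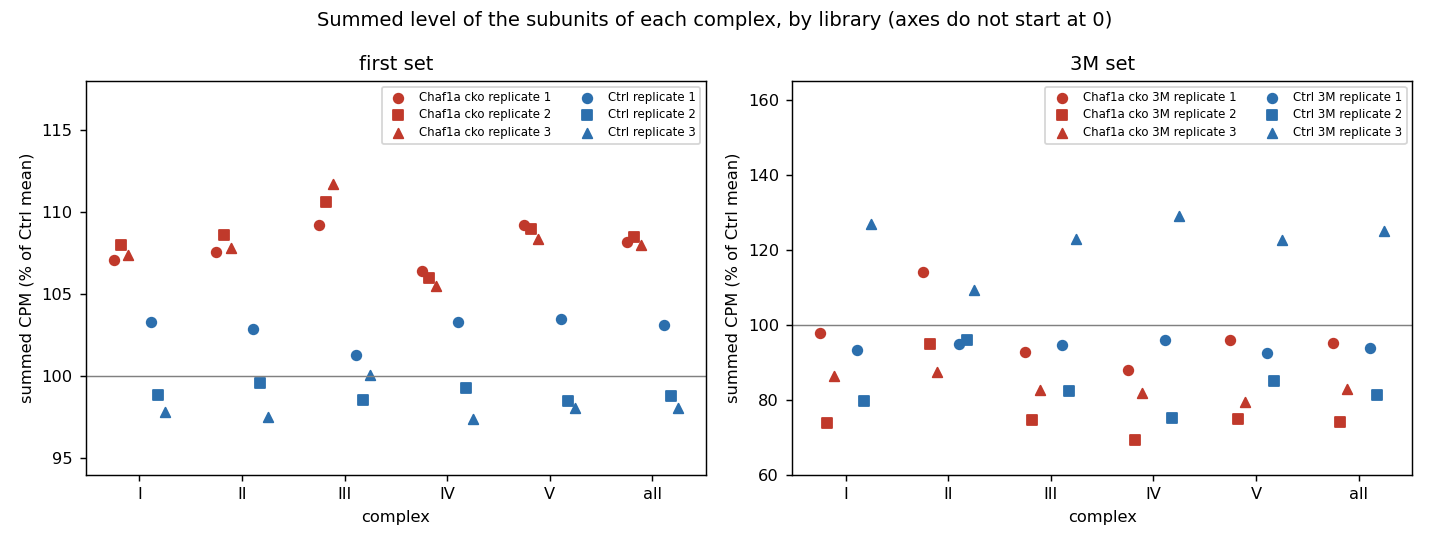
Summed CPM of the subunits of each complex and of all 83, as a percentage of the mean of the Ctrl (left panel) or Ctrl 3M (right panel) libraries, with 1 point per library and replicate numbers as marker shapes; the vertical axes do not start at 0. In the first set every red Chaf1a cko point is above every blue Ctrl point, and in the 3M set the groups overlap and Ctrl 3M replicate 3 is the highest point in every complex but complex II.

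The count of calls rests on small margins. Leaving out 1 library at a time, edgeR called 2 without Chaf1a cko replicate 1 (Cox8a and Atp5h), 1 without Chaf1a cko replicate 3 (Cox6a1), 4 without Ctrl replicate 1 (Sdhb, Cox6a1, Cox8a and Atp5a1) and 1 without Ctrl replicate 2 (Cox8a). It called 0 without Chaf1a cko replicate 2 and 0 without Ctrl replicate 3, where 23 and 22 subunits had an unadjusted p below 0.05. In each of these 2 fits 1 of them was lower, against 4.13 and 3.99% of tested genes. The matching share of tested genes higher was not computed. Over all tested genes, the fits with 1 library left out called 128 to 201 genes, against 270 of 22965 in the main fit. Without Ctrl replicate 1, 48 subunits were higher without overlap, against 13.2% of tested genes. The number above 0 stayed between 62 and 69 in these fits, and the 5 called genes kept positive fold changes in each of them. Of these 5, Atp5h, Atp5l and Cox6a1 have near-identical pseudogene copies in the GENCODE M21 annotation, with 5, 12 and 1 copies of at least 90% identity over at least 50% of the transcript. The tables hold none of these copies, so reads shared with them may have been split or dropped in counting, and the values of these 3 genes are uncertain to that extent. Atp5l also overlaps a gene on the opposite strand, as do 29 of the 83 in all, and the sources used here do not say whether counting used strand.

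Among other genes averaging at least 50 CPM, those with short transcripts moved by a like amount in the same direction. The subunits have short transcripts, with a median of 680 bases against 2024 over all genes with a length, and 58 are under 1000 bases. Among genes that are no members and average at least 50 CPM, the 183 with transcripts under 1000 bases had a median fold change of 0.11, and 75.4% were above 0. The median was smaller for longer transcripts, at 0.08 for 426 genes of 1000 to 2000 bases, 0.05 for 1233 genes of 2000 to 4000 bases and 0.01 for 1746 longer genes. Without the limit of 50 CPM this did not hold. All 4165 tested genes under 1000 bases, members included, had a median of -0.04, and 46.1% were above 0. Within the subunits, the 58 under 1000 bases had a median of 0.11 and the 25 longer ones 0.10. The part of transcript length in the subunits' values was not tested.

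**Figure D4:**
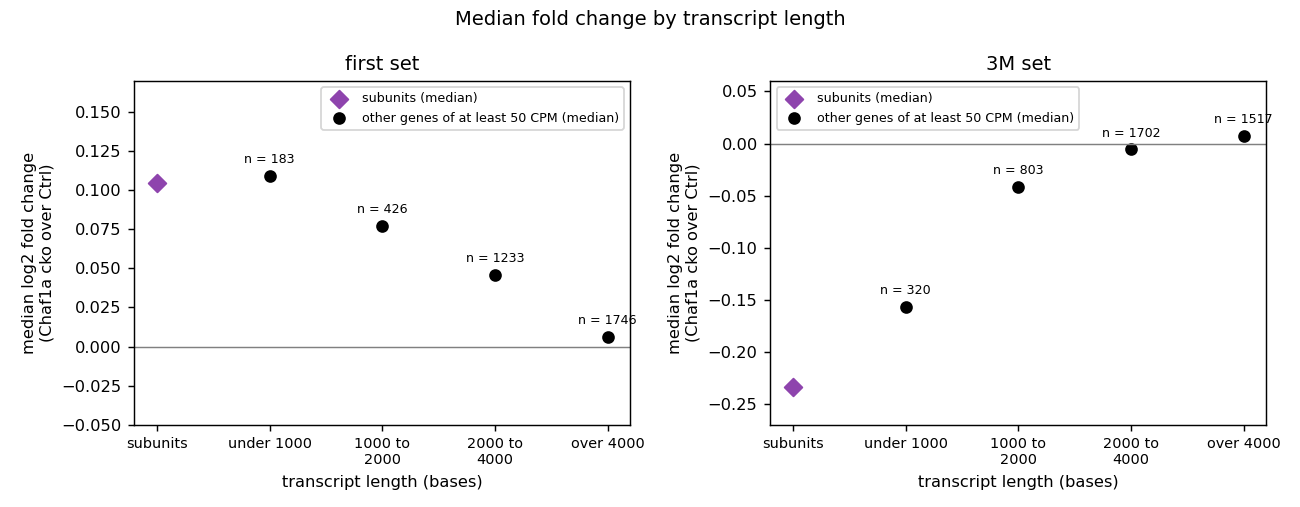
Median log2 fold change (Chaf1a cko over Ctrl) of all tested subunits (purple diamond) and of other genes averaging at least 50 CPM, by transcript length class in bases (black points, with the number of genes), in the first set (left) and the 3M set (right). The subunits' median of 0.10 in the first set is near the 0.11 of other short genes, and in the 3M set the subunits' -0.23 is below the -0.16 of other short genes.

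Other features of the first set also differed between its groups, and their part in the subunits' values was not tested. Chaf1a itself had 29.0, 24.5 and 22 CPM in the libraries labelled Chaf1a cko and 22.7, 32.3 and 18.8 CPM in those labelled Ctrl, so it was not lower under the cko label. The 3M libraries had 8.34, 5.58 and 5.54 CPM of it in libraries labelled Chaf1a cko 3M and 1.88, 4.74 and 9.75 CPM in those labelled Ctrl 3M. Summed over 10 marker genes each, the fibroblast markers had 3166 to 3203 CPM in Chaf1a cko and 3780 to 3880 CPM in Ctrl, with 5 of 10 lower, and cardiomyocyte markers 94164 to 94786 and 99260 to 102680 CPM, with 2 higher, 4 lower and none at 0 in all libraries. Most of the cardiomyocyte sum was Myh6, with means of 37062 and 40460 CPM, and Ttn, with 33349 and 36142 CPM. Of the 10 cardiomyocyte markers 6 had a fold change above 0, and their median was 0.04. Other sums were higher, at 1602 to 1617 CPM in Chaf1a cko and 1287 to 1364 CPM in Ctrl for 10 mural and smooth muscle markers (2 higher, 1 lower) and 2296 to 2321 and 1655 to 2232 CPM for 7 red cell markers (0 called). Of the mural and smooth muscle markers 6 of 10 were above 0. Acta2 alone averaged 854 CPM in Chaf1a cko and 584 CPM in Ctrl, while Myh11, the 1 called lower, averaged 74.2 and 99.0 CPM. Immediate early genes, which respond within minutes of a stimulus, summed to 2637 to 2705 CPM in Chaf1a cko and 3309 to 3460 CPM in Ctrl, and abundant nuclear RNAs to 26357 to 26708 and 30014 to 31794 CPM. Most of the nuclear RNA sum was Malat1, with means of 25392 CPM in Chaf1a cko and 29288 CPM in Ctrl. Of the 7 nuclear RNAs 3 were called lower and 1 was above 0. Y-linked genes summed to 111 to 135 CPM in Chaf1a cko and 50.7 to 60.6 CPM in Ctrl. Xist, an RNA of the inactive X chromosome of female cells, had 325, 276 and 262 CPM in Chaf1a cko. In Ctrl it had 585, 630 and 294 CPM. Every first-set library thus held both, and the share of each sex was not tested. In the 3M set Xist had 0 to 3.97 CPM and Y-linked genes summed to 355 to 644 CPM. The X-linked subunits Ndufa1, Ndufb11 and Cox7b had first-set fold changes of -0.12, 0.08 and 0.07. Library totals were 15068468 to 20896673 counts in the first set and 10569325 to 16445963 in the 3M set.

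In the 3M set, 0 of the 81 tested subunits passed the edgeR test, against 0.0144% of the 13925 tested genes, which is 1 gene higher and 1 lower (0.00718% each). At an unadjusted p below 0.05 edgeR had 1 subunit lower, Cox6c, against 3.73% of tested genes, and 0 higher, against 3.2%. DESeq2 called 0 subunits and 72 of the 13925 genes. It had 2 subunits lower at an unadjusted p below 0.05, against 4.76% of tested genes. Cox7b2 and Cox8c, testis forms of complex IV subunits, had 0 counts in all 6 libraries and were not tested. Fold changes were above 0 for 17 of 81 subunits (21%), against 48% of tested genes, and below 0 for the other 64, and their median was -0.23, against -0.02 over all tested genes. The libraries of the groups were apart for 1 subunit lower in Chaf1a cko 3M, against 6.89% of tested genes, and for 0 higher, against 7.21%. Both rest on single libraries. Lower without overlap were 27 subunits without Chaf1a cko 3M replicate 1 (13.1% of tested genes), 29 without Ctrl 3M replicate 2 (13.7%) and 3 without Ctrl 3M replicate 1 (11%), and 9 were higher without Ctrl 3M replicate 3 (13%). At an unadjusted p below 0.05, 4, 9 and 3 subunits were lower in the first 3 of these fits, against 3.78, 5.05 and 2.58% of tested genes. After adjustment edgeR called 0 in each.

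That 1 subunit was Uqcrb, a small subunit of complex III near the ubiquinone site. It had 151, 138 and 132 CPM in Chaf1a cko 3M libraries and 215, 156 and 191 CPM in Ctrl 3M libraries, with a fold change of -0.41 ± 0.19 (SE, n = 3 each; edgeR adjusted p = 0.716). Cox6c had 454, 334 and 358 CPM in Chaf1a cko 3M libraries and 511, 443 and 732 CPM in Ctrl 3M libraries. Its fold change was -0.56 ± 0.24 (SE, n = 3 each; edgeR adjusted p = 0.712), and the groups overlapped by the first library of Chaf1a cko 3M. Ndufb9 had 322, 211 and 267 CPM in Chaf1a cko 3M libraries and 347, 306 and 631 CPM in Ctrl 3M libraries (-0.68 ± 0.30, SE, n = 3 each; edgeR adjusted p = 0.712). In Atp5pb, subunit b of the peripheral stalk, the libraries had 275, 218 and 117 CPM in Chaf1a cko 3M and 318, 259 and 292 CPM in Ctrl 3M (-0.51 ± 0.30, SE, n = 3 each; edgeR adjusted p = 0.766). In each of the last 3 genes 1 library stood well away from the rest of its group.

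One control library carried much of the 3M pattern. Ctrl 3M replicate 3 had the highest value of the 6 libraries for 62 of 81 subunits (76.5%), against 17.9% of all tested genes. The subunits summed to 21428, 16656 and 18642 CPM in Chaf1a cko 3M libraries and 21102, 18305 and 28117 CPM in Ctrl 3M libraries, so that 2 controls lay within the range of the Chaf1a cko 3M libraries. Without that library, the subunits' median was -0.06 and 27 of 81 were above 0, while leaving out any other library gave medians down to -0.37. The mean sums were 18910 ± 2400 CPM in Chaf1a cko 3M and 22510 ± 5050 CPM in Ctrl 3M (SD, n = 3 each). Between replicates, genes with a mean above 10000 counts had a median coefficient of variation of 11.5% in Chaf1a cko 3M and 20% in Ctrl 3M, against 1.94% in Chaf1a cko and 2.85% in Ctrl. Standard errors of the 5 genes called in the first set were 0.19 to 0.22 in the 3M set, against 0.05 to 0.09 in the first.

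By complex, the 3M medians were -0.22 for complex I, -0.03 for complex II, -0.35 for complex III, -0.23 for complex IV and -0.26 for complex V. In complex I the 7 core subunits had fold changes of 0.004 to 0.14, with standard errors of 0.18 to 0.22, and 25 of the 29 accessory subunits were below 0, with a median of -0.30. The difference between core and accessory subunits was not tested, and none was called. Over all complexes the 56 tested subunits under 1000 bases had a median of -0.28 and the 25 longer ones -0.07. Other genes of at least 50 CPM had a median of -0.16 under 1000 bases (320 genes), -0.04 from 1000 to 2000 bases, -0.01 from 2000 to 4000 bases and 0.01 above. Here too the part of length was not tested.

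The most abundant subunits per kilobase in the 3M set were Uqcrq of complex III, at 999 CPM in Chaf1a cko 3M and 1202 in Ctrl 3M, and Atp5e, the epsilon subunit of the catalytic head, at 899 and 1225 CPM. Cox4i1, a regulatory subunit of complex IV, had 830 CPM per kilobase in Chaf1a cko 3M and 1068 in Ctrl 3M, and Ndufa4 had 792 and 1003. Sdhb led complex II at 224 and 245 CPM. At the other end, Ndufs5, an accessory subunit of complex I, had 5.06, 8.09 and 5.41 CPM in Chaf1a cko 3M libraries and 1.88, 5.63 and 6.23 CPM in Ctrl 3M libraries. Every other complex I subunit averaged above 60 CPM in both groups, and Ndufs5 was chosen for mention after its values were seen.

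Among the 3M libraries, cardiomyocyte markers summed to 50343 to 53910 CPM in Chaf1a cko 3M and 33289 to 42712 CPM in Ctrl 3M, macrophage markers to 292 to 343 and 479 to 551 CPM, and mesothelium markers to 14.7 to 27.1 and 55.8 to 121 CPM. The mesothelium sum was mostly Wt1, at 26.2, 24.8 and 14.7 CPM in Chaf1a cko 3M and 120, 52.3 and 74.0 CPM in Ctrl 3M. Of the 6 mesothelium markers 2 were tested, and 2 had 0 counts in all libraries. Abundant nuclear RNAs summed to 20160 to 23334 CPM in Chaf1a cko 3M and 15406 to 19357 CPM in Ctrl 3M, and immediate early genes to 403 to 435 and 498 to 588 CPM. Most of the nuclear RNA sum was Neat1, with means of 20040 CPM in Chaf1a cko 3M and 15790 CPM in Ctrl 3M. Of the 6 tested nuclear RNAs 3 were above 0, with 0 called. None of the 10 cardiomyocyte markers passed the edgeR test, and 6 of the 10 had a fold change above 0. Much of their sum was Myh6, with means of 26461 CPM in Chaf1a cko 3M and 16212 CPM in Ctrl 3M. The part of these differences in the subunits' values was not tested.

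The fold changes of the sets were compared in a fit over all 12 libraries with a term for the difference, the 3M set minus the first set. Of 22803 genes 0.0658% passed in edgeR, in either direction, and 456 genes passed in DESeq2. Of the 83 subunits 0 passed in edgeR or in DESeq2. The 83 include Cox7b2 and Cox8c, which had 0 counts in the 3M set. With standard errors of 742 and 559, no difference could be estimated for these genes. The fit also estimated each gene's spread over both sets together, although replicates varied more in the 3M set. At an unadjusted p below 0.05 edgeR had 7 subunits, all with the lower fold change in the 3M set, against 4.64% of genes in that direction and 4.84% in the other. The 7 were Ndufc1 (-0.86), Uqcrb (-0.61), Cox7a2 (-0.59), Ndufa8 (-0.56), Atp5l (-0.55), Cox6a1 (-0.49) and Ndufv3 (-0.48). The count of those lower went up to 24 without Chaf1a cko 3M replicate 1, 30 without Ctrl 3M replicate 2 and 18 without Ctrl 3M replicate 1, where 5.79, 6.74 and 5.87% of genes were lower at that threshold, and was 3 to 5 without any other library. Differences were below 0 for 70 of 83, and 54 of the 81 subunits tested in both sets had a fold change above 0 in the first set and below 0 in the 3M set. No subunit was thus shown to respond differently in the sets. The called genes of the first set had fold changes of 0.01 (Cox8a), -0.08 (Cox6a1), -0.20 (Atp5h), -0.13 (Sdhb) and -0.29 (Atp5l) in the 3M set.

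Several complex IV subunits exist as paired genes, of which one is used mainly in heart and skeletal muscle and the other in most tissues. Per kilobase, Cox6a2 made up 57.6, 57.0 and 56.9% of the Cox6a2 and Cox6a1 total in Chaf1a cko libraries and 66.2, 68.6 and 67.2% in Ctrl libraries. The difference of the log2 ratio was -0.63, and the libraries did not overlap. Cox8b made up 32.4, 31.7 and 27.4% of the Cox8b and Cox8a total in Chaf1a cko libraries and 42.3, 35.0 and 36.4% in Ctrl libraries, a difference of -0.47 in the log2 ratio without overlap. Cox7a1 made up 55.02, 55.6 and 56.6% of the Cox7a1 and Cox7a2 total in Chaf1a cko libraries and 59.4, 60.2 and 58.4% in Ctrl libraries, a difference of -0.21 without overlap. In all 3 pairs the muscle form had the smaller share in Chaf1a cko. Of the widely expressed forms Cox6a1 and Cox8a were called above and Cox7a2 (0.15) was not, and the muscle forms had fold changes of -0.18 (Cox6a2), -0.10 (Cox8b) and -0.06 (Cox7a1), with 0 called. For each of the 3 the two-sided exact permutation test gave p = 0.1, the smallest it can give with 3 against 3, and p = 0.333 after adjustment over the 10 ratios tested in both sets.

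**Figure D5:**
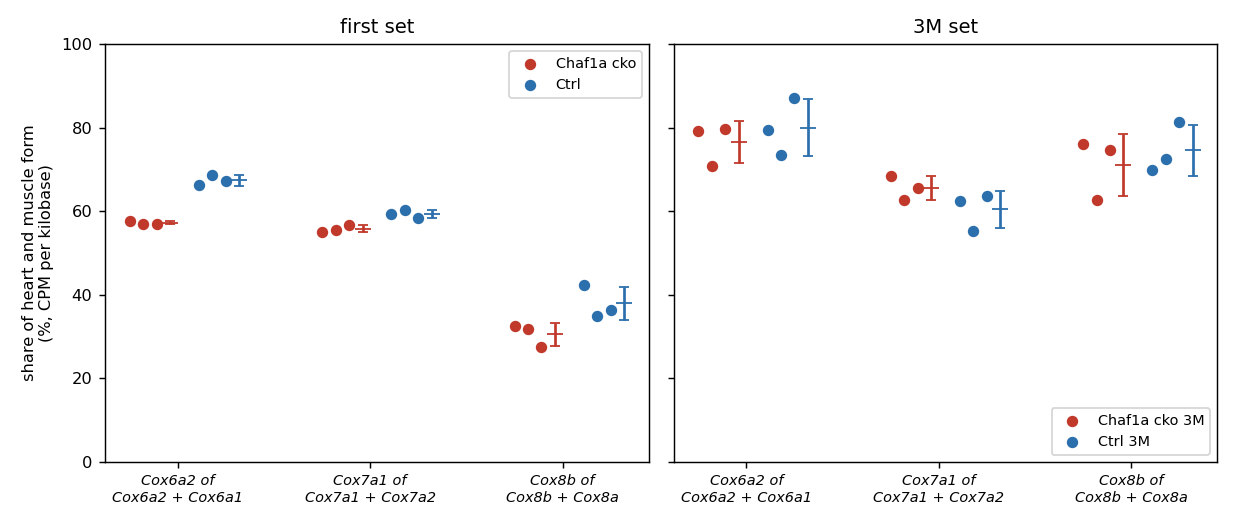
Share of the heart and muscle form in each complex IV pair (percent of CPM per kilobase, vertical axis from 0 to 100), in Chaf1a cko libraries (red, left of each pair) and Ctrl libraries (blue), with bars for the mean ± SD, in the first set (left panel) and the 3M set (right panel). All 3 pairs are apart in the first set, with Chaf1a cko lower, and all 3 overlap in the 3M set.

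No pair was apart in the 3M set. The share of Cox6a2 was 76.5 ± 4.94% in Chaf1a cko 3M and 80.0 ± 6.91% in Ctrl 3M, that of Cox8b 71.1 ± 7.40% and 74.5 ± 6.11%, and that of Cox7a1 65.5 ± 2.87% and 60.4 ± 4.45% (SD, n = 3 each; exact permutation p = 0.5, 0.6 and 0.2). The muscle share of Cox8b was thus above 60% in each 3M library and below 45% in each library of the first set, but the sets come from separately deposited tables with different background, and this difference was not tested. Cox4i1 held 98.2 to 99.4% of its pair with Cox4i2, a form known from hypoxia and the lung, in the first set and 94.3 to 98.7% in the 3M set. Cox4i2 had 9.94, 30.8 and 23.6 CPM in Chaf1a cko 3M libraries and 11.8, 12.3 and 13.99 CPM in Ctrl 3M libraries, which overlapped. In the first set Cox4i2, Cox6b2, Cox7b2 and Cox8c averaged at or under 5.34 CPM, the level below which 95% of 1538 odorant, pheromone and taste receptor genes lay, so their values there are not told from background. Of these receptor genes 94.7 to 97.7% had counts in each first-set library, against 1.24 to 1.69% in each 3M library. No value was corrected for this background. Cox6b2 had 1.87, 1.28 and 0.764 CPM in Chaf1a cko 3M libraries and 0, 0 and 0.959 CPM in Ctrl 3M libraries.

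Genes that build or serve the complexes were mostly not called. In the first set 0 of 17 tested assembly factors of complex I, 0 of 4 of complex II, 0 of 6 of complex III, 0 of 24 of complex IV and 0 of 5 of complex V passed the edgeR test, with median fold changes of 0.23, -0.11, 0.12, 0.11 and 0.25. Of 14 genes for the carriers ubiquinone and cytochrome c, 0 passed, and Cycs, which encodes cytochrome c, had a fold change of 0.20 ± 0.06 (SE, n = 3 each; edgeR adjusted p = 0.159). Of 19 regulators of mitochondrial biogenesis 0 passed, with a median of -0.03. Ppargc1a, which encodes the coactivator PGC-1α, had 224 CPM in Chaf1a cko and 217 CPM in Ctrl, and Perm1, a muscle regulator of the same programme, had 37.1 and 49.0 CPM (-0.40 ± 0.14, SE, n = 3 each; edgeR adjusted p = 0.272).

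Among 21 genes of other mitochondrial membrane functions 2 rose and 0 fell. Immt, which encodes the organiser of cristae junctions mitofilin, had 341, 340 and 345 CPM in Chaf1a cko libraries and 298, 272 and 277 CPM in Ctrl libraries (0.28 ± 0.05, SE, n = 3 each; edgeR adjusted p = 0.00727). Slc25a5, an ADP and ATP exchanger of the inner membrane, had 308, 326 and 319 CPM in Chaf1a cko libraries and 267, 254 and 269 CPM in Ctrl libraries (0.27 ± 0.05, SE, n = 3 each; edgeR adjusted p = 0.0081). Neither gene's groups overlapped, and the fold changes were of the size of those of Sdhb and Atp5l. Atpif1, which encodes the inhibitor that stops ATP synthase from running backwards, lies outside the naming rule and was singled out after its values were seen. It had 419, 445 and 422 CPM in Chaf1a cko libraries and 329, 319 and 332 CPM in Ctrl libraries, a fold change of 0.39 ± 0.05 (SE, n = 3 each; edgeR adjusted p = 8.68e-05).

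In the 3M set 0 genes of any of these lists passed the edgeR test, at assembly medians of 0.12, -0.19, 0.10, -0.0041 and -0.13 for complexes I to V. Coq8a, a kinase-like protein needed for ubiquinone synthesis, came nearest. It had 286, 280 and 266 CPM in Chaf1a cko 3M libraries and 67.7, 105 and 80.0 CPM in Ctrl 3M libraries, with a fold change of 1.72 ± 0.21 (SE, n = 3 each; edgeR adjusted p = 0.0715). Mfn2, a protein of mitochondrial fusion, had 355, 356 and 349 CPM in Chaf1a cko 3M libraries and 210, 229 and 255 CPM in Ctrl 3M libraries (0.61 ± 0.17, SE, n = 3 each; edgeR adjusted p = 0.595). Both were apart between the groups. Other genes of these lists had fold changes below 0, such as Cycs (-0.57 ± 0.28), Sdhaf2, an assembly factor of complex II (-1.01 ± 0.38), Tomm20, an outer membrane import receptor (-0.67 ± 0.23), and Gabpa, a subunit of GABP (-0.66 ± 0.26; SE, n = 3 each), with none called. These genes, Coq8a, Mfn2, Perm1, Cycs and Ppargc1a were named after their values were seen. Atpif1 had 98.7 ± 5.24 CPM in Chaf1a cko 3M and 101 ± 14.7 CPM in Ctrl 3M (SD, n = 3 each).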

How the data were processed

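The authors deposited whole-number counts per gene symbol, not normalized, as 2 tables holding 6 libraries apiece. The submitters' processing notes name FastQC, Trimmomatic, HISAT2 and mm10; the sources used here name no counting program or annotation. Per the labels' protocols, the cardiomyocytes were cultured, and libraries were stranded and depleted of ribosomal RNA.

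Each table had its own fit with edgeR 4.0.16 under R 4.3.3 (filterByExpr with a minimum count of 10 and total of 15, TMM scaling, robust quasi-likelihood test) over all genes, with Benjamini-Hochberg adjustment at 0.05. The fitting code was tested on simulated data. The labels do not say that replicates are separate animals, so p-values measure the spread between these libraries. Isoform ratios used counts plus 0.5. Lengths are of the shortest APPRIS principal transcript in GENCODE M21; copies were found with blastn 2.17.0; coordinates and promoters are from RefSeq, GRCm38.p6, which all 83 symbols matched. Named genes are those called, those with the smallest p and the most abundant per length in each complex, the isoform genes, and called genes of the lists, besides those said to be chosen later and members given as range ends or by role. Alternatives covered scaling, filters, DESeq2 1.42.0, the replicate block and leaving out each library. Members and lists were chosen with earlier results of these data known.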

Additional observations from a re-analysis of the deposited data

How the results depend on the processing

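With DESeq2 size factors in edgeR, and with no filter on low counts, the same 5 first-set subunits were called as in the main analysis. Over all tested genes 263 of 22965 and 253 of 25010 were called in these fits, against 270 of 22965 in the main analysis. Library size alone left 2 (Cox6a1 and Cox8a), where 240 of 22965 genes were called. A filter of 10 CPM in 3 libraries gave 7, adding Ndufc1 and Uqcrc1, where 366 of 10402 genes were called. The DESeq2 Wald test gave 9, adding these and Atp5j and Cyc1, where 483 of 22965 genes were called. The calls over all genes thus rose as well. Leaving out 1 library at a time gave 0 to 4, where 128 to 201 genes were called. Counts of subunits called in the 3M set and in the comparison of the sets were 0 under every alternative run. With DESeq2, 72 of 13925 and 456 of 22803 genes were called there. The medians over subunits ranged from 0.09 to 0.14 in the first set and from -0.37 to -0.06 in the 3M set when 1 library was left out.

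Of the single genes, Cox6c and Atp5g3 in the first set turned to -0.0081 and -0.0059 with library size alone and to -0.016 and -0.0133 with the 10 CPM filter. When 1 library was left out, first-set values that crossed 0 ranged from -0.0295 to 0.0336 for Cox6c, -0.0223 to 0.0736 for Atp5g3, -0.19 to 0.0607 for Cox8b, -0.22 to 0.28 for Atp5g1 and -0.56 to 0.26 for Cox4i2. In the 3M set they ranged from -0.20 to 0.0242 for Cox6a1, -0.0576 to 0.36 for Sdha, -0.12 to 0.14 for Cox8a, -0.23 to 0.0174 for Sdhb, -0.44 to 0.16 for Cox7a1 and -0.49 to 0.0732 for Cox8b. Log2 ratios of isoforms that crossed 0 ranged from -0.0765 to 0.62 for Cox4i1 to Cox4i2 in the first set, and from -0.63 to 0.0162 for Cox6a2 to Cox6a1 and -0.44 to 0.0353 for Cox8b to Cox8a in the 3M set. None of these was called, and the cause was not tested.

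The main fits did not pair libraries by replicate number. Correlations of deviations of same-numbered libraries were -0.037 to 0.037 in the first set and 0.026 to 0.057 in the 3M set. Those of differently numbered libraries were -0.077 to 0.04 and -0.066 to 0.012. These values do not exclude pairing, least of all in the 3M set. With the replicate number as a block, 4 subunits were called in the first set, without Atp5l (adjusted p = 0.0633, edgeR), and 0 in the 3M set. In these fits 192 of 22965 and 0 of 13925 genes were called. Few or 0 counts limit what can be read for Cox6b2, Cox7b2 and Cox8c.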
